A study of Homo sapiens with 18 samples.

Results

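The NDUF genes of respiratory complex I were described in bladder cancer (BLCA) cells with and without knockdown of ACAT1, a mitochondrial acetyl-CoA acetyltransferase. Their members were all rows of the gene count table whose symbol was NDUF followed by A, B, C, S, V, AB or AF and a number, which gave 45 of 39496 genes. RNA-seq had been done on 18 libraries in 6 groups of 3, from UM-UC-3 and T24 cells, 2 established human bladder transitional cell carcinoma lines labelled wild type. Each line was transfected with siNC, the control siRNA, or with siACAT1-1 or siACAT1-2, which are different siRNAs against ACAT1. Each line is a model of 1 tumour, and the labels call the replicates biological without saying what a replicate number marks. UM-UC-3 cells were grown in MEM and T24 cells in RPMI medium, so line and medium cannot be told apart.

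Complex I, or NADH:ubiquinone oxidoreductase, takes electrons from NADH, passes them to ubiquinone and pumps protons across the inner mitochondrial membrane. Its catalytic core is shared with bacteria and is encoded partly in the nucleus and partly in the mitochondrial genome, and around it sits a shell of accessory subunits. Assembly factors help to build the complex and are absent from the finished enzyme. Of the 45 members, 7 were nuclear core subunits, 30 were accessory subunits and 7 were the assembly factors NDUFAF1 to NDUFAF7. NDUFA4 was kept apart, since its protein is now assigned to complex IV. The assembly factor NDUFAF8 stood in the table under its older symbol C17orf89 and was therefore not a member.

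The libraries held 25163490 to 34417230 reads counted on genes, and the members took 0.288% to 0.397% of them. ACAT1 itself was at 46.0 ± 1.68 RPKM (SD, n = 3) in UM-UC-3 siNC cells, 3.05 ± 0.703 with siACAT1-1 and 2.16 ± 0.544 with siACAT1-2. In T24 cells it was at 16.2 ± 1.40, 1.29 ± 0.149 and 0.792 ± 0.122 RPKM, so ACAT1 was low in every library labelled as knockdown. RPKM means reads per kilobase of gene length, scaled to the counted reads of the library. Of 6 epithelial markers, the keratins KRT8 and KRT18 were at 40.6 and 142 RPKM in UM-UC-3 siNC cells and 250 and 236 RPKM in T24 siNC cells. KRT7, KRT19 and EPCAM were at 4.12, 0.0907 and 0.0390 RPKM in UM-UC-3 and 275, 20.4 and 1.71 RPKM in T24, and 4 of the 6 (KRT7, KRT8, KRT19 and EPCAM) were called lower in UM-UC-3 (edgeR, median log2 difference of the 5 tested -5.34). The defining urothelial markers UPK1B and UPK3A had a mean of 0 RPKM in the siNC cells of both lines, and UPK1A, UPK2, KRT5 and GATA3 were under 1 RPKM in every library. CDH1, a cadherin and the remaining epithelial marker, was also at 0 in siNC cells. The 4 leukocyte and 3 endothelial markers did not pass 0.188 RPKM in any library, and of these only PECAM1 was tested between the lines, where it was called higher in UM-UC-3 (log2 1.74, from 3 to 16 reads a library in UM-UC-3 and 2 to 3 in T24 siNC cells). PPARG, also a urothelial marker, was called lower in UM-UC-3 (edgeR, 22.3% of all genes), the 1 call among the 4 tested. KRT20, the remaining urothelial marker, had no row among the genes. Of 4 fibroblast or mesenchymal markers, COL3A1 and PDGFRB were called higher in UM-UC-3 (22% of all genes), and VIM and COL1A1 were not called. The part of such marker differences in the members' levels was not tested. In these bulk libraries, fewer cells that express a gene and less of its RNA per cell cannot be told apart.

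All 45 members passed the filter on low counts that left 20144 genes for testing. The members spanned a wide range of levels, from 1.38 RPKM to 1734 RPKM over single libraries. NDUFS5, an accessory subunit of the membrane arm, was the highest, with a mean of 1117 RPKM over the 18 libraries and 17.8% of all reads on the family. The assembly factor NDUFAF2 followed at 224 RPKM and the accessory subunit NDUFA6 at 202 RPKM. The lowest were NDUFAF5, an assembly factor that modifies NDUFS7, NDUFA3, an accessory subunit, and NDUFS7, a core subunit that carries an iron-sulfur cluster. In siNC cells NDUFAF5 was at 2.09 ± 0.43 RPKM in UM-UC-3 and 1.97 ± 0.44 in T24, and NDUFA3 was at 1.62 ± 0.15 and 2.16 ± 0.38 (SD, n = 3). The lengths behind the RPKM are the joined exons of all annotated transcripts, from 531 bases in NDUFB7 to 12268 bases in NDUFS1, which lowers the RPKM of a gene with many rarely used exons. Within a group the coefficient of variation of a member had a median of 10.9% over members and groups, and the highest was 41.6%, for NDUFAF3 in T24 siACAT1-1 cells.

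The highest and lowest members are shown over their libraries in the order siNC, siACAT1-1 and siACAT1-2. NDUFS5 in T24 cells had 1318, 1094 and 1180.5 RPKM, then 1289, 1039 and 1367, then 1734, 1110.1 and 1410.1. NDUFAF2, a paralogue of the accessory subunit NDUFA12, had 164, 164 and 171, 149, 171 and 196, and 139, 169 and 182 RPKM in UM-UC-3 and 244, 297 and 271, 251, 294 and 266, and 276, 337 and 283 in T24 cells. All T24 libraries of NDUFAF2 lay above all its UM-UC-3 libraries. NDUFA6 had 211, 193 and 154, 177, 207 and 177, and 214, 205 and 188 RPKM in UM-UC-3 and 214, 230.2 and 210.1, 197, 219 and 199.6, and 238, 216 and 193 in T24 cells, with overlap between all groups of a line. NDUFA3 had 1.46, 1.65 and 1.75, 1.69, 1.65 and 2.01, and 1.87, 2.11 and 1.71 RPKM in UM-UC-3 and 1.78, 2.15 and 2.54, 1.99, 2.20 and 3.21, and 2.68, 2.24 and 2.47 in T24 cells. NDUFAF5 had 2.20, 2.46 and 1.61, 1.96, 1.73 and 1.56, and 2.10, 2.35 and 1.71 RPKM in UM-UC-3 and 2.48, 1.78 and 1.65, 1.80, 1.82 and 1.57, and 2.69, 1.73 and 2.08 in T24 cells, and its groups overlapped within and between the lines.

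**Figure D1:**
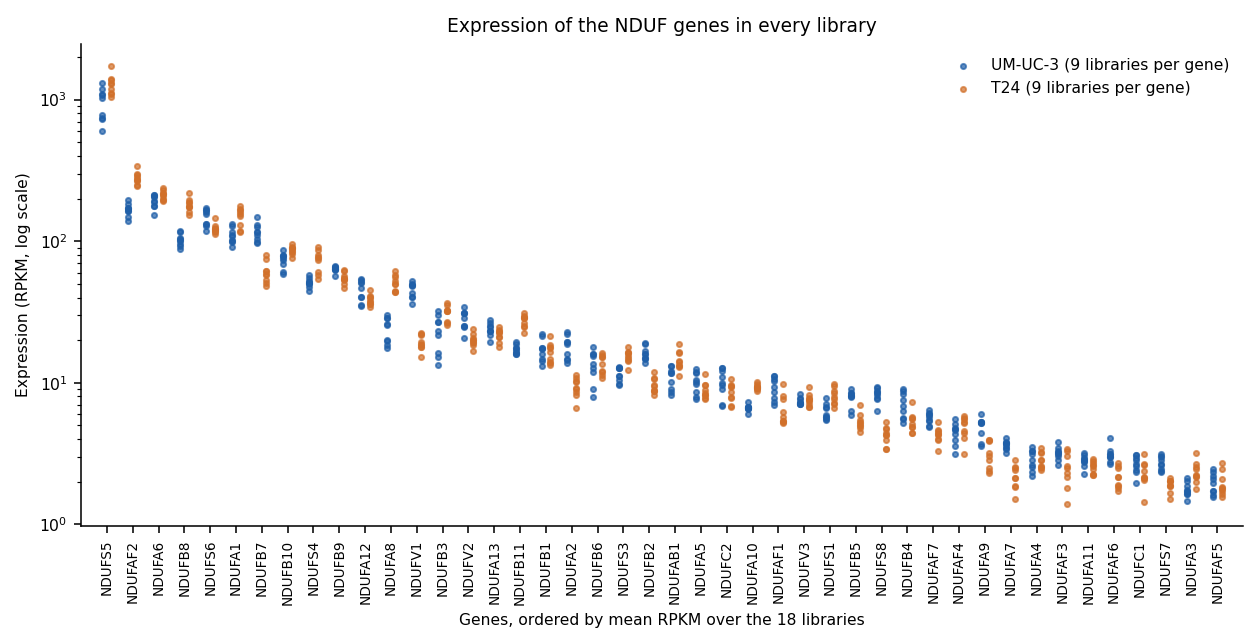
Expression of 44 of the 45 NDUF genes in RPKM on a log scale, with a point for each library, UM-UC-3 in blue and T24 in orange, and genes ordered by their mean over the 18 libraries. NDUFS5 lies above all other members at 604 to 1734 RPKM, and several genes, among them NDUFV1, NDUFA8 and NDUFB7, separate by cell line.

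The control cells of the lines differed in about as large a share of this family as of all genes. Between UM-UC-3 siNC and T24 siNC, 21 of 45 members were called at an adjusted p under 0.05 (edgeR quasi-likelihood test, Benjamini-Hochberg adjustment over all genes), 15 of them higher and 6 lower in UM-UC-3. The share of all tested genes called in this comparison was 44.3%, with 22% higher and 22.3% lower. The median log2 difference of the members was 0.23, against 0.03 for all genes tested, and it was 0.13 without UM-UC-3 siNC replicate 2 and 0.33 without UM-UC-3 siNC replicate 3. By role, 5 of 7 core subunits were called and all 5 were higher in UM-UC-3, while 12 of 30 accessory subunits were called, 7 higher and 5 lower, and 4 of 7 assembly factors, 3 higher and 1 lower. Any difference of culture medium or library preparation between the lines is part of these values and cannot be told apart from the line.

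The core subunits with the largest difference were NDUFV1, which binds NADH and the flavin, and NDUFS8, which carries iron-sulfur clusters. NDUFV1 had 48.0, 40.7 and 52.3 RPKM in the UM-UC-3 siNC libraries and 22.1, 18.7 and 22.3 in the T24 siNC libraries. The groups did not overlap, and the log2 difference was 1.197 (SE 0.16, edgeR adjusted p = 1.15e-05). NDUFS8 had 9.21, 7.83 and 8.52 RPKM in UM-UC-3 and 3.91, 3.42 and 4.27 in T24, again without overlap, with a log2 difference of 1.18 (SE 0.18, adjusted p = 6.34e-05). The genes lie at chr11:67606852-67612535 (NDUFV1) and chr11:68030617-68036644 (NDUFS8), both on the plus strand of GRCh38 and close to each other on chromosome 11.

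Other core subunits called included NDUFV2 and NDUFS7. NDUFV2, the partner of NDUFV1 in the NADH-binding module, had 30.9, 34.5 and 24.7 RPKM against 20.0, 19.4 and 16.8, a log2 difference of 0.73 (SE 0.19). NDUFS7, which carries the last iron-sulfur cluster before ubiquinone, had 3.14, 2.36 and 2.84 RPKM against 1.65, 2.03 and 2.02, a log2 difference of 0.60 (SE 0.16). Both were higher in each UM-UC-3 siNC library than in any T24 siNC library, with edgeR adjusted p of 0.00506 for NDUFV2 and 0.00528 for NDUFS7. Of the exon bases of NDUFS7, 49.1% are shared with genes on the opposite strand, and of those of NDUFV2, 28.4% with a gene on the same strand, and the strand setting of the counting was not given in the sources used here.

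NDUFS1 and NDUFS3 were not called. NDUFS1, the largest core subunit, had 6.60, 6.77 and 5.48 RPKM in UM-UC-3 siNC and 7.61, 8.51 and 7.10 in T24 siNC, a log2 difference of -0.25 (SE 0.16). NDUFS3, which lies in the arm between the NADH and ubiquinone sites, had 12.8, 12.6 and 10.5 RPKM against 15.3, 16.2 and 14.9, a log2 difference of -0.32 (SE 0.16). Neither value passed the test (edgeR adjusted p = 0.204 and 0.113).

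Among the accessory subunits, NDUFB7 and NDUFA8 differed most, in opposite directions. Both proteins have paired cysteine motifs and sit on the intermembrane space side of the complex. NDUFB7 had 126, 116 and 111 RPKM in the UM-UC-3 siNC libraries and 58.3, 47.9 and 62.0 in T24, with a log2 difference of 1.11 (SE 0.22, edgeR adjusted p = 0.000574). NDUFA8 had 25.5, 28.7 and 20.0 RPKM against 43.5, 61.6 and 43.9, a log2 difference of -0.95 (SE 0.22, adjusted p = 0.00201). The pairs of groups did not overlap in either gene.

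Further members called higher in UM-UC-3 were NDUFA9, NDUFB2, NDUFB5, NDUFA2, NDUFA7, NDUFB4, NDUFAF1, NDUFAF6 and NDUFAF7, with log2 differences of 0.48 to 0.89. Those called lower were NDUFB8, NDUFAF2, NDUFB11, NDUFS4 and NDUFA10, from -0.71 to -0.48. The call of NDUFAF1, an assembly factor of the membrane arm, was the weakest (adjusted p = 0.0499) and held in 3 of 18 fits with a single library removed. NDUFAF7, a methyltransferase, kept its call in 11 of 18 fits, NDUFAF6 and NDUFB4 in 16, and NDUFA7 and NDUFA9 in 17. NDUFB8, NDUFB11, NDUFB2 and NDUFA7 share 48.5%, 44.9%, 35.9% and 33.5% of their exon bases with other annotated genes.

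**Figure D2:**
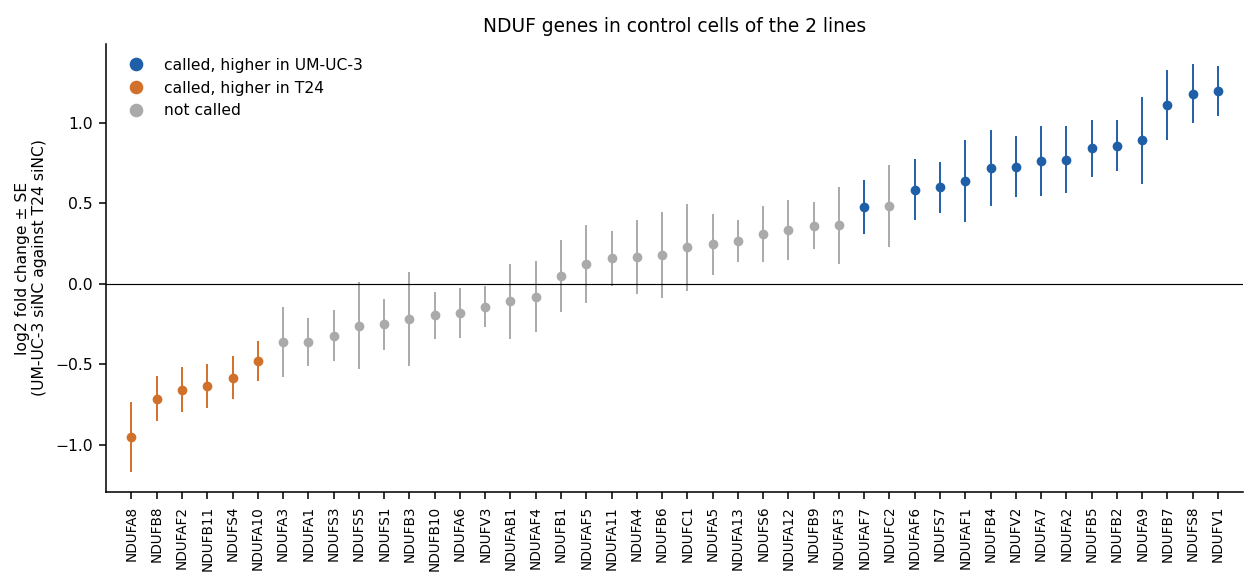
Fitted log2 fold change of 44 of the 45 NDUF genes between UM-UC-3 siNC and T24 siNC cells, with standard errors, sorted from lowest to highest. Blue points are called higher in UM-UC-3, orange points higher in T24 and grey points are not called, with NDUFA8 at -0.95 and NDUFV1 at 1.197 at the ends.

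The promoters of the members were searched for the letters of 3 motifs of factors known for nuclear genes of the respiratory chain. RefSeq windows of GRCh38.p14, from 250 bases before to 50 bases after each annotated start, were at hand for 38 members and 27305 genes in all, and both strands were read. The letters AAGATGGC of the YY1 motif were in the windows of 7 members (18.4%), against 3.52% of all genes, and in all 7 they began 11 to 26 bases into the transcribed part. The palindromic NRF1 motif, whose letters are the capitals in the NDUFB4 and NDUFA8 stretches, was in 3 members (7.89%) against 1.52%, and CCGGAAG, the core of the ETS motif, in 6 members (15.8%) against 12.2%. No motif holds another, and a match is a description of the letters, not of binding. The comparison was with every gene that had a window, without matching to the members. Whether the ATG within the YY1 letters is a start codon of these genes was not tested. The 8 stretches of 30 bases below belong to the members with a match that were called between the lines, each 5′ to 3′ on the strand of its gene, with the motif in capitals.
NDUFA7 (YY1, chr19:8321343-8321372, minus strand): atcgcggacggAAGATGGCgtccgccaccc
NDUFA9 (YY1, chr12:4649113-4649142, plus strand): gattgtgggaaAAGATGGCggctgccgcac
NDUFS7 (YY1, chr19:1383913-1383942, plus strand): aggccgaggccAAGATGGCggtgctgtcag
NDUFB8 (YY1, chr10:100529836-100529865, minus strand): tgaagaaggtgAAGATGGCggtggccaggg
NDUFS4 (YY1, chr5:53560649-53560678, plus strand): ttgcctgcagcAAGATGGCggcggtgtcaa
NDUFB4 (NRF1, chr3:120596167-120596196, plus strand): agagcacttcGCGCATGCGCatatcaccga
NDUFA8 (NRF1, chr9:122159764-122159793, minus strand): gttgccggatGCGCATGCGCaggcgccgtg
NDUFB7 (ETS, chr19:14572072-14572101, minus strand): gcctaaatgacCCGGAAGctgtgtctgact

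Among the printed stretches, which cover only called members, those with the YY1 or the NRF1 letters did not all go with the same direction. Members with a match that were not called are left out here, and a part of the motifs in the line difference was not tested. Of the 5 YY1 stretches, those of NDUFA7, NDUFA9 and NDUFS7 belong to genes that were higher in UM-UC-3 siNC cells, and those of NDUFB8 and NDUFS4 to genes that were lower. The NRF1 stretches likewise belong to NDUFB4, which was higher, and NDUFA8, which was lower.

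The members of UM-UC-3 cells shifted together from library to library, and those of T24 cells did so in few libraries. As a measure, the log2 CPM (counts scaled to library size with TMM factors) of each member was set against its mean over the 9 libraries of the line, and the median over the 45 members was taken. In UM-UC-3 cells this median was -0.14, -0.20 and -0.10 in the libraries with replicate number 3, for siNC, siACAT1-1 and siACAT1-2, and 8, 10 and 9 of the 45 members lay above the line mean. UM-UC-3 siACAT1-1 replicate 1 was also low, at -0.17 with 5 members above the mean, while the other 5 UM-UC-3 libraries had medians of 0.08 to 0.16. In T24 cells the medians lay between -0.10 and 0.20, with siACAT1-2 replicate 1 the highest, at 0.20 with 40 members above the mean, followed by siACAT1-1 replicate 3 at 0.14 with 32. T24 siACAT1-2 replicate 2 had 13 members above the mean, and the other 6 T24 libraries had 17 to 22 of 45. The same median over all genes tested was between -0.01 and 0.03 in every library.

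The replicate number took a larger share of the members' variance than the siRNA did. In UM-UC-3 cells the median share was 53.5% for the replicate number and 18.5% for the siRNA, and the former was larger in 33 of 45 members (73.3%). For all genes tested these shares were 38.2% and 25.5%, and the replicate number was larger in 58.7%. In T24 cells the members' shares were 37.9% and 24.5%, with the replicate number larger in 29 of 45 members (64.4%). For all genes they were 44.0% and 25.5%, with 61.9%, close to the share of the members. NDUFAF1 had the largest share for the replicate number in both lines, 90.7% in UM-UC-3 and 83.3% in T24. NDUFS4 in T24 cells stood at the other end, with 86.6% of its variance for the siRNA and 0.267% for the replicate number. The share of reads on genes of the mitochondrial genome moved with the numbers too, at 4.34% to 5.01% in UM-UC-3 replicate 3 libraries against 5.72% to 6.17% in the others, and its part in the members' levels was not tested.

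**Figure D3:**
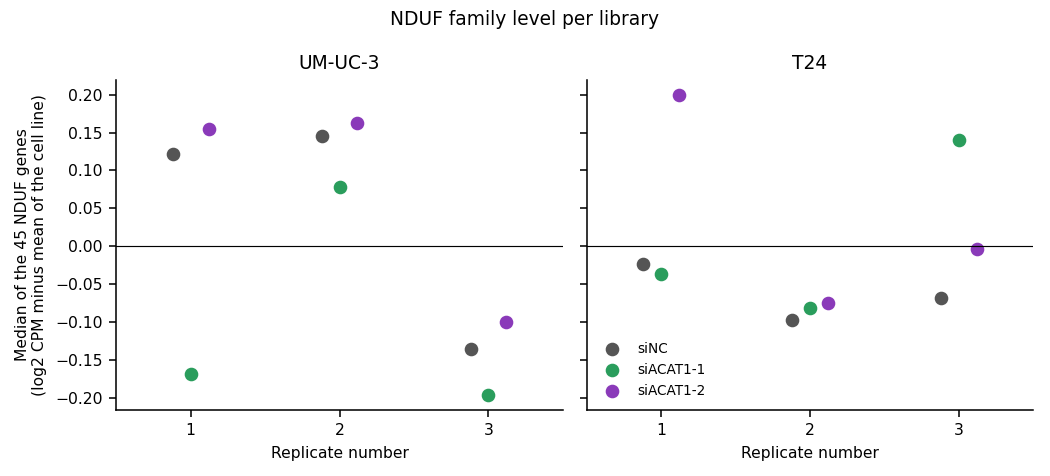
Median over the 45 NDUF genes of the log2 CPM minus the mean of the cell line, for each library, by replicate number and coloured by siRNA. The 3 UM-UC-3 libraries with number 3 and siACAT1-1 replicate 1 lie below 0, and T24 siACAT1-2 replicate 1 is the highest at 0.20.

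In the edgeR model without a replicate block, no member of the family was called after knockdown of ACAT1, while DESeq2 called 1 member and a model with a block for the replicate number called 2, all with T24 siACAT1-2. With edgeR and no block, 0 of 45 members passed an adjusted p under 0.05 for UM-UC-3 siACAT1-1 (0.00993% of all genes), UM-UC-3 siACAT1-2 (0.0546%), T24 siACAT1-1 (0.124%) or T24 siACAT1-2 (0.268%), each against siNC of its line. The same count was 0 for the mean of the 4 comparisons (0.223% of all genes) and for the knockdown effect in UM-UC-3 minus that in T24 (0%). Members with an unadjusted p under 0.05 numbered 0, 0, 0 and 2 in the single comparisons, 1 in the mean and 0 in the difference between the lines, against 5.34%, 3.86%, 11.5%, 8.44%, 10.9% and 2.57% of all genes. The DESeq2 call with T24 siACAT1-2 was NDUFS4 (1.46% of all genes), and DESeq2 called 0 members in the other 5 tests, where it called 0.00497% to 2.2% of all genes. The median standard error of a member was 0.19 on the log2 scale in a single comparison and 0.12 in the mean, which limits the size of change that could be called.

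The family's median log2 fold change differed in sign among the comparisons. For siACAT1-1 against siNC of UM-UC-3 it was -0.10, with 36 of 45 members below 0 (80%, against 51.3% of all genes), and the core subunits had a median of -0.23 with 6 of 7 below 0. With UM-UC-3 siACAT1-2 the median was 0.01 and 22 members were below 0. With T24 siACAT1-1 it was 0.05 with 17 members below 0, and with T24 siACAT1-2 it was 0.11 with 9 below 0 (20%, against 47.7% of all genes). The comparisons of a line share its siNC libraries, and the medians of all genes were between -0.01 and 0.01. Leaving out UM-UC-3 siACAT1-1 replicate 2 moved the first median to -0.19, replicate 3 of that group to -0.05, and without T24 siACAT1-2 replicate 1 the last was 0.01. The median with T24 siACAT1-1 turned to -0.0060 without replicate 3 of that group and was 0.08 without its replicate 2. The median with UM-UC-3 siACAT1-2 was -0.07 without UM-UC-3 siNC replicate 3 and 0.14 without UM-UC-3 siACAT1-2 replicate 3.

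**Figure D4:**
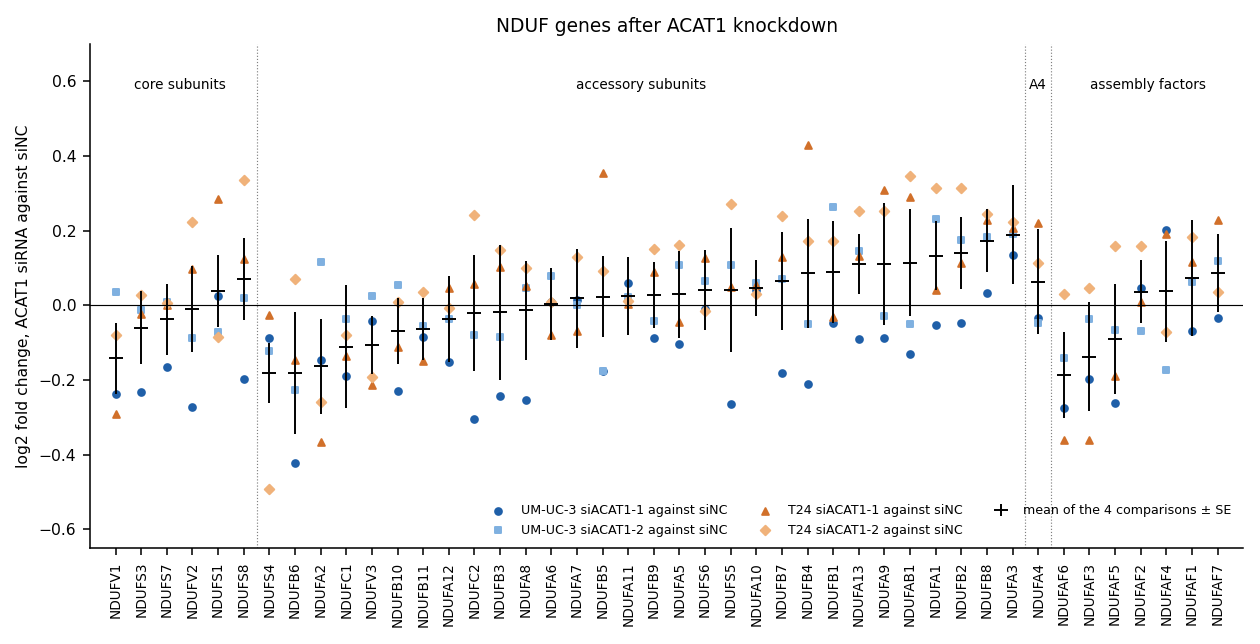
Log2 fold change of 44 of the 45 NDUF genes with each ACAT1 siRNA against siNC in each line (coloured points) and the mean of the 4 comparisons with its standard error (black), grouped by role. The means lie between -0.19 and 0.19, and the single comparisons lie between -0.49 and 0.43.

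The core subunits in the knockdown libraries are given here with siACAT1-1 first and siACAT1-2 second, for comparison with the siNC values above. NDUFV1 had 35.98, 40.6 and 42.9, and 50, 49.1 and 49.3 RPKM in UM-UC-3 and 15.2, 17.8 and 18.5, and 21.6, 17.8 and 19.5 in T24 cells. NDUFV2 had 25.04, 28.8 and 20.8, and 31.1, 31.1 and 25.1 in UM-UC-3 and 22.2, 19.1 and 18.3, and 23.9, 20.7 and 20.0 in T24 cells. NDUFS8 had 6.33, 8.23 and 7.70, and 8.78, 9.27 and 8.58 in UM-UC-3 and 4.28, 3.43 and 4.82, and 5.27, 4.44 and 4.70 in T24 cells. For NDUFV1 and NDUFS8 every UM-UC-3 library stayed above every T24 library, whatever the siRNA. NDUFS7 had 2.33, 2.46 and 2.66, and 2.97, 2.64 and 3.02 in UM-UC-3 and 1.51, 2.02 and 2.12, and 1.86, 1.91 and 1.86 in T24 cells. NDUFS3 had 9.84, 11.1 and 9.68, and 12.6, 12.9 and 11.1 in UM-UC-3 and 14.6, 16.5 and 14.3, and 16.3, 18.0 and 12.4 in T24 cells. NDUFS1 in UM-UC-3 cells had 7.78, 5.77 and 5.73, and 7.06, 5.87 and 5.53 RPKM, overlapping its siNC libraries. The accessory subunits with the largest line difference kept that order too. NDUFB7 had 97.9, 115 and 98.6, and 131, 147 and 103 RPKM in UM-UC-3 and 57.3, 50.8 and 74.8, and 79.7, 53.4 and 61.8 in T24 cells. NDUFA8 had 17.7, 26.0 and 18.5, and 28.8, 30.3 and 19.6 RPKM in UM-UC-3 and 44.3, 52.6 and 55.9, and 49.7, 57.4 and 50.1 in T24 cells.

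The largest mean changes over both siRNAs and both lines were small. NDUFA3 had a log2 fold change of 0.19 (SE 0.13), NDUFAF6, an assembly factor, -0.19 (SE 0.12), NDUFS4, an accessory subunit at the tip of the peripheral arm, -0.18 (SE 0.08) and NDUFB6, an accessory subunit of the membrane arm, -0.18 (SE 0.16). Their edgeR adjusted p lay between 0.417 and 0.756. NDUFA3 had 1.46 to 1.75 RPKM in UM-UC-3 siNC libraries and 1.65 to 2.11 in the knockdown libraries, and NDUFB6 had 11.9 to 18.0 and 7.93 to 15.8, so the groups overlapped in both genes. NDUFAF6 in T24 cells had 2.52, 1.87 and 2.58 RPKM with siNC. It had 1.71, 1.90 and 1.80 with siACAT1-1 and 2.71, 2.15 and 2.16 with siACAT1-2. Each of these knockdown groups overlapped siNC, while every siACAT1-1 library lay below every siACAT1-2 library. In UM-UC-3 cells NDUFAF6 had 2.98 to 4.07 RPKM with siNC, 2.68 to 3.00 with siACAT1-1 and 3.05 to 3.29 with siACAT1-2, with the same overlaps. The share of all genes with such a separation of the siRNAs was not computed.

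NDUFS4 in T24 cells with siACAT1-2 stood farthest from its control. It had 74.2, 91.7 and 80.2 RPKM with siNC, 77.2, 75.6 and 86.4 with siACAT1-1 and 57.5, 60.9 and 53.7 with siACAT1-2. Each siACAT1-2 library lay below every other T24 library, while the siNC and siACAT1-1 libraries overlapped. The log2 fold change with siACAT1-2 was -0.49 (SE 0.13), and its call depended on the model. It was not called in the edgeR model of the 6 groups (adjusted p = 0.185). It was called with a block for the replicate number, separate for each line (-0.49, SE 0.11, edgeR adjusted p = 0.00664) and with DESeq2 without the block (-0.50, adjusted p = 0.0112). With the block, 2 of 45 members were called in this comparison, against 8.48% of all genes. NDUFS4 was called with the block in all 18 fits with a single library removed (adjusted p 0.00283 to 0.0486), and with only the T24 libraries and no block it was not (adjusted p = 0.546). In UM-UC-3 cells NDUFS4 had 49.7, 51.6 and 57.6 RPKM with siNC, 44.6, 50.3 and 54.5 with siACAT1-1 and 47.3, 50.8 and 52.2 with siACAT1-2, and the fold change with siACAT1-2 was -0.12 (SE 0.13). The difference between the lines for siACAT1-2 alone was not tested. NDUFS4 lies at chr5:53560633-53683340 on the plus strand of GRCh38, and none of its exon bases are shared with another gene (0%).

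In the other knockdown comparisons the block left the count of called members at 0. The shares of all genes called with the block were 3.06% for UM-UC-3 siACAT1-1, 1.36% for UM-UC-3 siACAT1-2, 13.9% for T24 siACAT1-1, 12.4% for the mean of the 4 comparisons and 0.104% for the difference between the lines. For T24 siACAT1-1, 1 to 4 members were called with the block when T24 siNC replicate 2 or T24 siACAT1-1 replicate 3 (1 each) or T24 siACAT1-1 replicate 2 (4) was left out. Between the siNC cells of the lines the block raised the count to 30 members, 20 higher and 10 lower, against 61.7% of all genes (31.6% higher and 30.2% lower). The members gained were NDUFA12, NDUFA13, NDUFB9, NDUFC2, NDUFS6, NDUFA1, NDUFS1, NDUFS3 and NDUFS5.

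Between the siNC cells of the lines, 16 members lay without overlap above in UM-UC-3 and 10 below in TMM-scaled CPM (27.3% and 26.1% of all genes). Members whose knockdown libraries did not overlap their siNC libraries were fewer. In UM-UC-3 cells 0 members lay above and 1 below siNC with siACAT1-1 (6.13% and 6.74% of all genes), and 2 above and 1 below with siACAT1-2 (6.15% and 5.86%). In T24 cells 4 lay above and 1 below with siACAT1-1 (6.87% and 6.9%), and 4 above and 2 below with siACAT1-2 (6.68% and 5.7%). In both siACAT1-2 comparisons NDUFS4 lay below siNC and NDUFB8 lay above it. In RPKM, which does not use the TMM factors, the NDUFS4 libraries of UM-UC-3 overlapped (49.7 to 57.6 with siNC, 47.3 to 52.2 with siACAT1-2).

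The siRNAs were then compared with each other over both lines, which asks whether different siRNAs against the same gene left the family at the same level. The median of the members was 0.10 on the log2 scale for siACAT1-2 minus siACAT1-1, with 35 of 45 members above 0, against a median of 0.01 for all genes. It ranged from 0.07 without T24 siACAT1-2 replicate 1 to 0.17 without UM-UC-3 siACAT1-1 replicate 2, and with the block from 0.05 without UM-UC-3 siACAT1-1 replicate 1 to 0.17 without T24 siACAT1-2 replicate 2. Without the block 0 members were called with edgeR (2.56% of all genes), 4 had an unadjusted p under 0.05 (16.7% of all genes), and DESeq2 called 1 (7.77%). With the replicate block 6 members were called, 4 higher and 2 lower with siACAT1-2, against 20.6% of all genes (10.4% higher and 10.2% lower).

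Among these 6, NDUFA1, a small accessory subunit of the membrane arm, NDUFS5 and NDUFA5, an accessory subunit of the peripheral arm, were higher with siACAT1-2, by 0.28 (SE 0.08), 0.28 (SE 0.09) and 0.20 (SE 0.07), with edgeR adjusted p of 0.0199, 0.0233 and 0.0473. NDUFS4 and NDUFS1 were lower, by -0.25 (SE 0.08) and -0.23 (SE 0.08), with adjusted p of 0.0253 and 0.0371. NDUFA1 and NDUFA5 were named after their values were seen. NDUFA1 shares 44.5% of its exon bases with RNF113A on the opposite strand.

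These values can be read in the order of the replicate numbers. NDUFS5 in UM-UC-3 cells had 1083, 1096 and 731 RPKM with siNC, 783, 1035 and 604 with siACAT1-1 and 1305, 1181 and 739 with siACAT1-2, in the order of the replicate numbers. The library with number 3 was the lowest in each of these 3 groups, and within each number siACAT1-2 was above siACAT1-1. NDUFA1 in UM-UC-3 cells had 108, 103 and 100.4 RPKM with siNC, 91.0, 110 and 98.2 with siACAT1-1 and 127, 132 and 117 with siACAT1-2, so that the siACAT1-2 libraries lay above all others. In T24 cells NDUFA1 had 116, 170 and 130 RPKM with siNC, 117, 155 and 150 with siACAT1-1 and 167, 178 and 161 with siACAT1-2, where siNC and siACAT1-2 overlapped. NDUFS1 in T24 cells had 9.79, 8.78 and 9.43 RPKM with siACAT1-1, above all siNC (7.61, 8.51 and 7.10) and siACAT1-2 (6.63, 7.87 and 7.17) libraries.

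**Figure D5:**
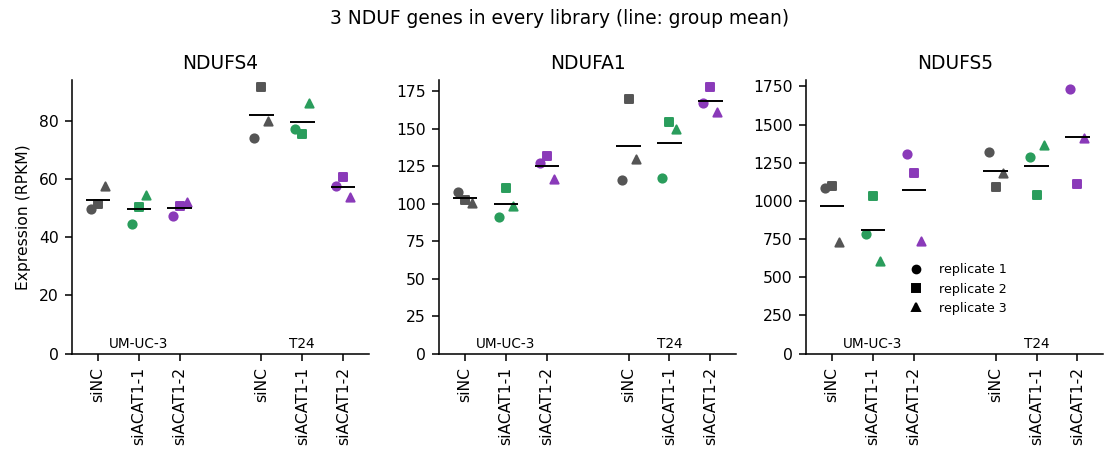
RPKM of NDUFS4, NDUFA1 and NDUFS5 in every library by cell line and siRNA, with marker shapes for the replicate numbers and a line at the group mean (n = 3). NDUFS4 in T24 siACAT1-2 cells sits between 53.7 and 60.9 RPKM, below the other T24 libraries, and NDUFS5 in UM-UC-3 cells is lowest in replicate 3 of each group.

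The number of calls with the block depended on which library was left out, more for some members than for others. The count was 0 without T24 siACAT1-1 replicate 1. It was 2 without UM-UC-3 siACAT1-1 replicate 1, UM-UC-3 siACAT1-2 replicate 1 or T24 siACAT1-2 replicate 1, and 3 without UM-UC-3 siACAT1-2 replicate 2 or T24 siACAT1-1 replicate 3. Without T24 siACAT1-1 replicate 2 it was 10. NDUFA1 and NDUFS5 were called in 14 of these 18 fits, NDUFS4 in 11, NDUFS1 in 8 and NDUFA5 in 4.

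The complex I genes outside the NDUF names were read from lists chosen for their known roles. Of 13 other assembly factors, 1 was called in the knockdown comparisons without the block, with T24 siACAT1-2, where 0.268% of all genes were called. TMEM126B, which works with NDUFAF1, ECSIT and ACAD9 on the membrane arm, fell with siACAT1-2 in T24 cells, from 12.9 ± 0.562 RPKM with siNC to 5.99 ± 1.86 (log2 fold change -1.10, SE 0.19, edgeR adjusted p = 0.0166). With siACAT1-1 it was at 13.4 ± 2.99 RPKM, a fold change of 0.06 (SE 0.19). In UM-UC-3 cells TMEM126B had 23.3 ± 2.24 RPKM with siNC, 22.9 ± 0.962 with siACAT1-1 and 13.3 ± 1.46 with siACAT1-2, where the fold change of -0.84 (SE 0.19) was not called without the block (adjusted p = 0.244) and was called with it (-0.85, SE 0.14, adjusted p = 0.00376). The direct comparison of the siRNAs gave -0.99 (SE 0.13, adjusted p = 0.00102), so that TMEM126B was lower with siACAT1-2 than with siACAT1-1 over both lines. Its partner NDUFAF1 had mean log2 fold changes within its standard error, 0.07 (SE 0.16).

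FOXRED1, another assembly factor, was called only with the block, lower with both siRNAs in T24 cells (-0.47, SE 0.13, and -0.44, SE 0.13, edgeR adjusted p = 0.0245 and 0.0426). With the block, 13.9% and 8.48% of all genes were called in these comparisons. NDUFAF8, read from its row C17orf89, had a mean knockdown change of 0.01 (SE 0.13) and was lower in UM-UC-3 than in T24 siNC cells, by -0.91 (SE 0.21, adjusted p = 0.00183). Between the siNC cells 6 of the 13 assembly factors were called, 5 higher in UM-UC-3 and 1 lower. This stands against 44.3% of all genes, 22% higher and 22.3% lower.

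The 7 complex I subunits of the mitochondrial genome, MT-ND1 to MT-ND6 with MT-ND4L, were not called in any comparison without the block. MT-ND1 was at 2553 ± 121 RPKM in UM-UC-3 siNC and 2139 ± 137 in T24 siNC cells, so this transcript stood above the nuclear members there. With T24 siACAT1-1 the median of the 7 was 0.16, and MT-ND1 was called with the block (0.33, SE 0.10, edgeR adjusted p = 0.0332). The median was 0.13 with T24 siACAT1-2, -0.07 with UM-UC-3 siACAT1-1 and -0.12 with UM-UC-3 siACAT1-2. With the block 6 of the 7 were called higher in UM-UC-3 siNC than in T24 siNC cells, where 31.6% of all genes were called higher.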

How the data were processed

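The authors extracted RNA with TRIzol, prepared stranded mRNA libraries with unique molecular identifiers and sequenced them on an Illumina NovaSeq. Per the labels, the submitters' processing notes name Trimmomatic 0.36, STAR 2.5.3, featureCounts of Subread 1.5.1 and GRCh38. The authors deposited exon read counts per gene, not normalized, and RPKM values calculated from the same counts. The annotation release, the strand setting and the treatment of multi-mapping reads and molecular identifiers were not given in the sources used here. All 18 columns were matched to libraries by name, and replicates differed by more than sampling noise.

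The tests used the counts and edgeR 4.0.16 under R 4.3.3. A quasi-likelihood model with TMM factors had a coefficient for each of the 6 groups, covered 20144 genes left by filterByExpr, and was followed by Benjamini-Hochberg adjustment in each comparison. DESeq2 1.42.0, other size factors, no filter, single-line fits, libraries left out and a replicate block were alternatives, and leaving out libraries with the block was added after seeing the data. The tests were checked on simulated counts that had no effect of the replicate number and larger changes than those of the members after knockdown. The check therefore does not cover the setting in which the models with and without the block differed. P-values measure the spread between these libraries.

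Whether the numbers pair the libraries was checked from the data. After subtraction of group means, all same-numbered libraries of a line were positively correlated over genes, with r from 0.115 to 0.576 in UM-UC-3 and 0.356 to 0.686 in T24 cells. Between groups of a line, libraries with different numbers had r from -0.545 to 0.269 in UM-UC-3 and -0.567 to 0.210 in T24 cells. The ranges thus overlapped in UM-UC-3 but not in T24 cells. The 2 kinds of r are not independent. Subtracting the mean of 3 libraries pushes r of different numbers below 0 wherever the same numbers correlate positively. The pairing comes from these values alone.

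The members, lists and tests were chosen with earlier results of these data known. Values per library are given for the core subunits, the 3 highest and 3 lowest members and the 4 largest differences between lines. Of the 4 largest mean changes, NDUFA3 and NDUFS4 have them in both lines. NDUFAF6 has them in T24 cells and ranges in UM-UC-3 cells, and NDUFB6 has only ranges in UM-UC-3 cells. Some members called only with the block also have them, chosen after their values were seen, and others such as NDUFA5 do not. Exon overlaps were computed from the exon positions in the count table, and promoters were taken from RefSeq. The values of 1 member are not reported here, and it stays in the counts and medians of the family.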

Additional observations from a re-analysis of the deposited data

How the results depend on the processing

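Family medians kept their sign under other size factors, DESeq2, no filter, the block, the fit of a single line, and the fits without UM-UC-3 replicate 3 or T24 replicate 2 in all 3 groups. Between the siNC cells the last 2 fits called 22 and 19 members. Without the filter on low counts, 13 members were called between the siNC cells instead of 21. The members lost included NDUFA10, NDUFA7, NDUFAF1, NDUFAF6, NDUFAF7, NDUFB4 and NDUFS7, with more genes tested. For the fits without the filter or without these replicate numbers, the shares of all genes called were not computed. DESeq2 called 1 member with T24 siACAT1-2 (1.46% of all genes) and 1 in the siRNA difference (7.77%), and 23 between the siNC cells (46.8%).

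With the replicate block, 2 members were called with T24 siACAT1-2 and 6 in the siRNA difference, against 0 without it, and the block added 9 calls and lost none between the siNC cells. It changed no other count of called members. The cause of the differences between these models was not tested.

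For all fits that left out a library, the shares of all genes called were not computed. Leaving out each library in turn gave 0 called members in every knockdown comparison and in the siRNA difference without the block, and 17 to 22 between the siNC cells. With the block the counts ranged from 1 to 2 for T24 siACAT1-2, 0 to 4 for T24 siACAT1-1, 0 to 10 for the siRNA difference (5 without UM-UC-3 siNC replicate 1 or T24 siNC replicate 3, 7 without UM-UC-3 siNC replicate 3) and 0 to 1 for the mean of the 4 comparisons, with the 1 found without T24 siACAT1-1 replicate 3. The family median ranged from -0.071 (without UM-UC-3 siNC replicate 3) to 0.14 (without UM-UC-3 siACAT1-2 replicate 3) for UM-UC-3 siACAT1-2, and from -0.03 to 0.05 for the mean. The depth of NDUFA3, with 102 to 200 counts a library, limits its precision.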

Other observations

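The other complexes of the respiratory chain were read from lists chosen for their known members, and without the block they had 0 calls after knockdown, where 0.00993% to 0.268% of all genes were called. In the 4 knockdown comparisons without the block, 0 of 8 genes of complex II, 0 of 15 of complex III, 0 of 30 of complex IV and 0 of 19 of complex V, a list that includes the assembly factor TMEM70 also read above, were called with edgeR. With the block, T24 siACAT1-1 called 1, 3, 1 and 2 genes of complexes II to V (13.9% of all genes) and T24 siACAT1-2 called 0, 1, 2 and 1 (8.48%). UM-UC-3 siACAT1-1 called SDHA and COX6B1 (3.06%), both lower, and UM-UC-3 siACAT1-2 called 0 (1.36%). With UM-UC-3 siACAT1-1 and no block the medians of complexes II to V were -0.12, -0.07, -0.13 and -0.10 on the log2 scale, beside -0.10 for the NDUF genes. With T24 siACAT1-2 they were 0.17, 0.13, 0.16 and 0.08, beside 0.11. Between the siNC cells 3, 7, 19 and 12 genes of these complexes were called, of which 3, 6, 10 and 9 were higher in UM-UC-3, against 44.3% of all genes called and 22% called higher.

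Of 11 regulators of mitochondrial gene expression, 0 were called after knockdown without the block. With the block, 13.9% of all genes were called with T24 siACAT1-1 and 8.48% with T24 siACAT1-2. NRF1 was also called lower with the block in the mean of the 4 comparisons (12.4% of all genes). TFAM, YY1 and MYC were called lower in the siRNA difference (20.6%). Between the siNC cells 5 of the 11 were called without the block, 3 higher and 2 lower in UM-UC-3 (44.3% of all genes). NRF1, a transcription factor for nuclear respiratory genes, had log2 fold changes of -0.45 (SE 0.16) and -0.55 (SE 0.16) with the siRNAs in T24 cells, which were called only with the block (-0.44 and -0.56, edgeR adjusted p = 0.0426 and 0.0186). ESRRA, a nuclear receptor that acts on mitochondrial genes, was called higher with the block in T24 siACAT1-2 cells (0.40, SE 0.12, edgeR adjusted p = 0.0379; 0.546 without the block). The values of NRF1 in UM-UC-3 cells with the block were -0.09 (SE 0.14) and -0.23 (SE 0.14), not called, and the difference between the lines had an adjusted p of 0.566.

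The table also holds 35 rows named as pseudogenes of NDUF members, and the most counted of them, NDUFV2P1, had 394 reads over all 18 libraries.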
